A study of Homo sapiens with 9 samples.

Results

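The comparison described here set MOLT4 cells exposed for 6 h to one of 2 compounds against each other: 3 libraries titled for MI-389 and 3 titled for sunitinib, out of 9 libraries in the series. The remaining 3 libraries came from cells given the vehicle DMSO at 0.1% for 6 h, and their values stand beside the others below. Members were all genes averaging 1 FPKM or more (an abundance unit that scales fragments by transcript length and library size) over the 9 libraries, which was 12301 of 23621 gene rows. MOLT4 is a cell line from a human T-cell leukemia (T-ALL), grown for all groups in RPMI medium with serum and antibiotics, and polyA RNA was sequenced. Every group was this 1 line. The labels name no separate cultures behind the libraries of a group, and p-values then measure only the spread between libraries, which may be technical.

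Sunitinib is a small-molecule inhibitor of several receptor tyrosine kinases. The series describes MI-389 as a phthalimide conjugate, a kind of molecule in which a phthalimide group recruits the cereblon ubiquitin ligase so that a bound protein is marked for degradation, and its title names the termination factor GSPT1 as a target of such conjugates. GSPT1, also called eRF3a, works with ETF1 (eRF1) to release the finished protein at a stop codon. Stalled or failed translation can activate kinases of the integrated stress response, which phosphorylate eIF2alpha, lower general translation and favour translation of the transcription factor ATF4, and can also activate stress kinases upstream of JUN and FOS.

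The labels disagree about which compound each treated group received. Library titles, the list of sequencing barcodes and the table's column names place the same 3 libraries under MI-389, whereas the source field of those libraries names sunitinib at 1 µM, and that of the sunitinib-titled libraries names MI-389 at 0.1 µM. Groups follow the titles here. If the source field is right, every direction given below is turned round with respect to the compounds. The doses in the source field also differ between the groups, so compound and dose cannot be told apart.

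The deposited values hold no counts, so the depth of each library is unknown. Spacing of low values in 122 genes near the table's bottom gave a ratio of 1.01, MI-389-titled against sunitinib-titled, as a guide to relative depth. That spacing also carries the unstated normalization before deposit, so the ratio is not depth alone. With short non-coding RNA rows left out, Pearson's r across genes was 0.997 to 0.9974 within the MI-389-titled group, 0.9966 to 0.9971 within the sunitinib-titled group and 0.9734 to 0.9746 between them; genes are not independent replicates. Rows named MIR1244, a short RNA with several copies, took 50.6% to 53.8% of the summed FPKM in the MI-389-titled libraries and 61.9% to 63.7% in the sunitinib-titled ones. All 22 T-lineage markers passed the expression filter, as did 3 of 8 B-cell markers, 0 of 10 myeloid, 1 of 7 erythroid or endothelial and 0 of 9 epithelial or fibroblast markers. Summed myeloid markers were 1.504 to 1.78 FPKM in the MI-389-titled libraries and 1.41 to 1.69 in the sunitinib-titled ones. Of these 10 markers 8 stayed below 0.3 FPKM in all 9 libraries, where the lowest value of the table was 0.092. Among B-cell markers MS4A1 was below the filter, while BLK was 46.97 to 50.24 and 48.79 to 49.11 FPKM in those groups. CD79A was 7.88 to 8.846 and 6.503 to 7.296, and CD79B had means of 2.242 and 2.022. In bulk RNA, fewer cells expressing a gene and less of its RNA per cell cannot be told apart.

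Most tested genes differed between the treated groups, the majority by small amounts. At an adjusted p below 0.05 in limma, 6927 of 12301 genes (56.3%) were called, 4427 (36.0%) higher and 2500 (20.3%) lower in the MI-389-titled libraries. When a called difference also had to reach 2-fold in FPKM + 1, increases prevailed: 362 genes (2.94%) were higher and 55 (0.447%) lower. At 4-fold or more, 62 genes were higher and 3 lower. Short non-coding RNA rows made up 8 of the 62 higher and all 3 of the lower. The median log2 difference over all tested genes was 0.08, with the 5th and 95th percentiles at -0.55 and 0.88.

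The split between higher and lower calls depended on how libraries were scaled. It was 63.9% higher with the deposited values, 68.4% with spike-in scaling, 50.2% with cyclic loess, 46.1% with quantile normalization and 40.3% after centring each library on its median, where 3279 genes were higher and 4863 lower. Centring moved the all-gene median by -0.165 and quantile normalization by -0.118 (log2). The median log2 level of a library was 4.74 ± 0.056 (SD, n = 3) in the MI-389-titled group, 4.58 ± 0.025 in the sunitinib-titled group and 4.66 ± 0.089 in DMSO. The treated groups did not overlap, and the two-sided exact permutation p was 0.1, the smallest that 3 against 3 can give. External spike-in RNAs, added by cell number per the labels' protocols, differed by a median of 0.003 over 16 RNAs. The normalization before deposit was not given. Had it used these RNAs, a difference near 0 would be built in, so the value is no independent check. Of the 417 genes called at 2-fold or more, 415 to 417 were called in the same direction under each of these 4 other scalings. Those scalings moved the all-gene median by -0.165 to -0.003. Selecting genes at 2-fold favours such agreement, so the count is no independent check of the calls.

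The balance of directions differed with abundance. In the quintile of genes with the lowest mean levels 24.9% were higher and 11.1% lower, and in the middle quintile (17.2 to 35.7 FPKM) 47.5% were higher and 16.5% lower. In the most abundant quintile, above 81.3 FPKM, 21.7% were higher and 35.8% lower, and its median log2 difference was -0.09. Counts for the gene lists below stand against the shares over all tested genes, 36.0% higher and 20.3% lower. A list near those shares does not stand apart. Lists of mostly abundant genes also have to be read against the 21.7% higher and 35.8% lower of the most abundant quintile. Of the tested genes 164 reached the filter through the mean of 1 group alone, 98 of them through the MI-389-titled group; such a member of a list had to differ, and is named where a list holds one.

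**Figure D1:**
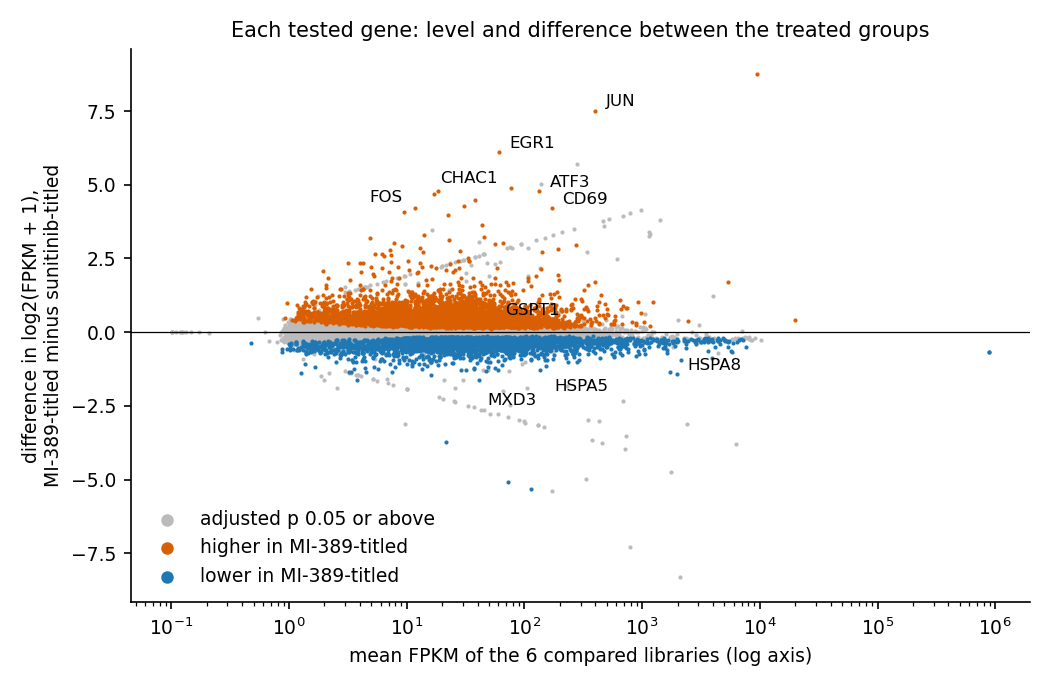
Mean FPKM of each tested gene over the 6 compared libraries (horizontal, log axis) against its difference in log2(FPKM + 1), MI-389-titled minus sunitinib-titled (vertical). Each point is a gene, orange where higher and blue where lower at an adjusted p below 0.05; JUN lies highest of the labelled genes at 7.52, and large rises outnumber large falls.

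Genes of translation termination, the process named in the series title, differed by small amounts. GSPT1 mRNA was 67.2, 63.6 and 66.6 FPKM in the MI-389-titled libraries, 53.6, 48.4 and 50.1 in the sunitinib-titled ones, and 59.0, 63.8 and 66.8 in DMSO. The treated groups did not overlap, which held for 8542 of 12301 tested genes (69.4%). The MI-389-titled libraries overlapped DMSO. The log2 difference was 0.37 ± 0.061 (SE, n = 3 per group, limma adjusted p = 0.000624). These are mRNA levels and carry no measure of GSPT1 protein. GSPT2, the close relative of GSPT1, was at 0.0989 to 0.133 FPKM in all 9 libraries, at the bottom of the table and below the filter.

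ETF1, which reads the stop codon beside GSPT1, had means of 174 and 126 FPKM in the MI-389-titled and sunitinib-titled groups and a log2 difference of 0.47 (adjusted p = 0.000347). LTN1, a ubiquitin ligase that marks nascent chains on stalled ribosomes, was higher by 0.98, and PELO, which recognises stalled ribosomes, by 0.56. ABCE1, which splits ribosomes after termination, was lower by -0.75 on the log2 scale. In all, 5 of 11 tested termination and rescue genes were higher, 2 lower and 4 not called, close to the shares over all genes of 36.0% and 20.3%. The median was 0.19, and 0.02 under median centring.

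The mRNAs of cereblon and of several proteins degraded through it were also higher, and no protein was measured. CRBN itself was 57.3, 49.8 and 53.7 FPKM in the MI-389-titled libraries and 37.6, 38.3 and 37.97 in the sunitinib-titled ones, where DMSO gave 37.5, 37.2 and 39.6. Its log2 difference was 0.48, and the sunitinib-titled values fell within the DMSO range. The zinc finger factors IKZF1 and IKZF3, classic cereblon substrates under phthalimide drugs, differed by 0.28 and 0.69, and the kinase CSNK1A1 by 0.78. The IKZF1 call was lost under spike-in scaling (adjusted p = 0.0569). RBX1, the RING subunit of the cullin ligase, was lower by -0.78. Over the list of ligase subunits and substrates 8 of 15 tested genes were higher and 4 lower (median 0.28). Over the COP9 signalosome and neddylation list 3 of 16 were higher and 4 lower (median -0.01), with 2 higher and 9 lower under median centring and 7 and 5 under cyclic loess.

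AP-1 subunits and immediate early genes, which cells transcribe within minutes to hours of a signal, included the largest single rises, JUN and EGR1. JUN was 817, 771 and 794 FPKM in the MI-389-titled libraries, 3.90, 2.84 and 3.33 in the sunitinib-titled ones and 6.04, 6.15 and 7.59 in DMSO. Its group means stood 237-fold apart, with a log2 difference of 7.52 ± 0.099 (SE; adjusted p = 8.62e-11), and the sunitinib-titled libraries were the lowest of the 3 groups. EGR1, a zinc finger factor of growth factor and stress signalling, was 127, 118 and 117 FPKM against 0.893, 0.652 and 0.715, with 1.74, 1.11 and 2 in DMSO. The difference was 6.12 (adjusted p = 2.08e-09). FOS, which pairs with JUN, was 22.6, 23.4 and 24.2 FPKM against 0.422, 0.239 and 0.278, close to the bottom of the table.

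Other AP-1 members moved less or the other way. JUND rose to 351, 323 and 342 FPKM from 45.7, 47.2 and 47.6 (log2 difference 2.83), and JUNB differed by 0.97. Of 9 tested AP-1 subunits 5 were higher, 3 lower and 1 not called, with a median of 0.97; FOSB, FOSL1 and MAFF were below the filter. FOS passed it only through the MI-389-titled group, and without FOS the counts were 4 higher and 3 lower with a median of 0.54. Of 13 tested immediate early genes outside AP-1, 12 were higher and 1 lower, with a median of 0.74. Another 9 of that list of 22 were below the filter, so the count covers only the expressed members. The mRNA decay factor ZFP36 (1.71), IER2 (1.68) and the zinc finger factor KLF6 (1.83) had similar log2 differences.

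Phosphatases that switch off MAP kinases were mostly, but not all, higher. The list of dual-specificity phosphatases of p38 and JNK had 4 tested members, all higher, but DUSP8 passed the filter only through the MI-389-titled group. Without it there were 3, all higher, with a median of 2.25. DUSP1 was 27.7, 27.7 and 26.1 FPKM against 5.12, 4.78 and 4.89, and DUSP10 was 25.0, 23.2 and 22.7 against 2.65, 1.69 and 3.11. DUSP8 was 9.56, 8.55 and 10.5 FPKM against 0.125, 0.146 and 0.178, which is at the bottom of the table, so no fold is given. Of 9 tested feedback genes of ERK signalling 8 were higher and 1 lower, with a median of 0.89. The lower one was DUSP7, another ERK phosphatase, at 14.8, 12.2 and 14.2 FPKM against 25.3, 23.5 and 24.2 (-0.79). DUSP6, the cytoplasmic ERK phosphatase, was 13.3, 11.9 and 13.5 FPKM against 1.74, 1.79 and 1.43, with DMSO between them at 5.53, 4.45 and 4.27. The MI-389-titled libraries lay above DMSO and the sunitinib-titled ones below it.

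**Figure D2:**
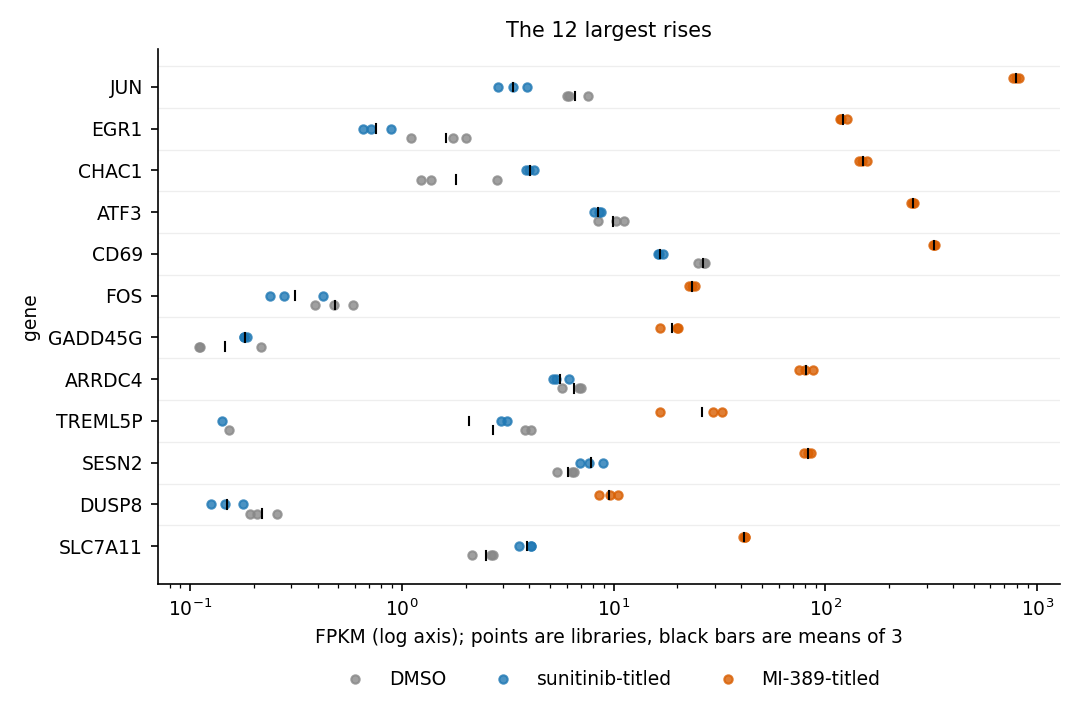
FPKM (log axis) of the 12 genes with the largest rises among called genes with at least 5 FPKM in the higher group; each point is a library, black bars are means of 3, and colours mark DMSO, sunitinib-titled and MI-389-titled libraries. Only genes whose treated groups did not overlap were eligible, so their separation from the sunitinib-titled libraries was set by selection. For every gene shown the 3 MI-389-titled libraries lie above the 6 others, JUN from 771 to 817 FPKM. TREML5P has 1 sunitinib-titled library at 0.141.

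Transcription factors downstream of eIF2alpha formed the next group. ATF4 was 1214.5, 1176 and 1215 FPKM in the MI-389-titled libraries against 763, 774 and 740, a log2 difference of 0.66. ATF3, a stress-induced factor of the same family, was 261, 254 and 259 FPKM against 8.48, 8.03 and 8.71, and 10.2, 8.44 and 11.2 in DMSO. The ATF3 difference was 4.78 ± 0.085 (SE; adjusted p = 9.45e-10), a 30.7-fold ratio of means. DDIT3, which encodes CHOP, was 250.6, 234.9 and 246.3 FPKM against 33.2, 34.6 and 40.9 (2.72). CEBPB differed by 2.41 and TRIB3, a pseudokinase target of ATF4 and CHOP, by 1.604. Of 11 tested factors on this list 9 were higher and 2 lower (median 0.96); without JDP2, which passed the filter only through the MI-389-titled group, 8 were higher and 2 lower (median 0.87). Among eIF2alpha kinases and phosphatase subunits 6 of 15 were higher and 3 lower, close to the all-gene shares of 36.0% and 20.3%. Their median was 0.10 and turned to -0.06 under median centring, with 4 higher and 7 lower. PPP1R15A (GADD34), which directs the phosphatase to eIF2alpha, differed by 1.48.

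CHAC1, which degrades glutathione and is a common reporter of ATF4 activity, was 158, 143 and 148 FPKM in the MI-389-titled libraries and 3.86, 4.21 and 3.98 in the sunitinib-titled ones. DMSO was lower still, at 1.23, 1.38 and 2.82. The log2 difference between treated groups was 4.91 ± 0.17 (SE; adjusted p = 6.03e-08).

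Promoters of CHAC1 and ATF3 are shown because both genes rose strongly and both hold the core of the CARE, the composite element bound by ATF4 with C/EBP partners. Each is the RefSeq promoter on GRCh38.p14 from 250 bases before the transcription start to 50 after it, in the direction of the gene: CHAC1 on the plus strand at chr15:40953221-40953520, ATF3 on the plus strand at chr1:212565157-212565456, the first of the starts listed for it. The deposited values were made on hg19, so these coordinates were not joined to them. Only the first listed start of each gene was searched, so other starts of ATF3 were not. Which start gave the ATF3 RNA in these cells was not tested. Capitals mark the match to TGATGNAA on either strand, which begins at position -209 in CHAC1 and -191 in ATF3.
CHAC1: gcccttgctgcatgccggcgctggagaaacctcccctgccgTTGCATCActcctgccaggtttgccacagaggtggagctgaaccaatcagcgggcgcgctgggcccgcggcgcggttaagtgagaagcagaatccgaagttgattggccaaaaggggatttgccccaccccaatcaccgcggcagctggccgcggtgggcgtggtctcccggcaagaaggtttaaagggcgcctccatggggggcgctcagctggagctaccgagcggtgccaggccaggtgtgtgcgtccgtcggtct
ATF3: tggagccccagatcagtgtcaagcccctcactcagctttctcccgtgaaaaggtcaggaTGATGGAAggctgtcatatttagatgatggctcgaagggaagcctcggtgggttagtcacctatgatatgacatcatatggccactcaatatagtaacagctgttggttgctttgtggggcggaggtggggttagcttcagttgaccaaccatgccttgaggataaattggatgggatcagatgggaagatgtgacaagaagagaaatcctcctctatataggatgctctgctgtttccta
The core, searched as TGATGNAA on both strands, was in 1.6% of 9475 promoters of tested genes and 3.67% of all 27305 promoters in the RefSeq table. Over the ATF4 and CHOP factors, amino acid transporters, serine and one-carbon enzymes and cytosolic tRNA synthetases, 13 of 47 genes with a promoter sequence held it: AARS, ASNS, ATF3, CARS, CHAC1, GOT1, IARS, MTHFD1L, NARS, SLC38A1, SLC3A2, SLC7A1 and TARS. These were 13 of the 37 genes called higher and 0 of the 3 called lower. A match is a description of letters, not a measured site.

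Amino acid uptake and supply genes were broadly higher. Of 13 tested transporters 10 were higher and none lower, with a median of 1.14. SLC7A11, the cystine importer, was 41.9, 40.7 and 41.6 FPKM against 4.05, 3.56 and 4.06, and 2.64, 2.15 and 2.70 in DMSO. SLC3A2, the shared heavy chain of several transporters, was 614, 597 and 602 against 185, 188 and 179. The glutamine carrier SLC1A5 differed by 1.94 and the glycine carrier SLC6A9 by 2.92.

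The list of serine, one-carbon and asparagine synthesis also holds PCK2 and CHAC1, the glutathione-degrading enzyme given above. Of its 17 tested genes 15 were higher and none lower, with a median of 0.80. PCK2, the mitochondrial enzyme that makes phosphoenolpyruvate, was 124, 113 and 119 FPKM against 13.5, 13.8 and 13.6, and MTHFD2, the mitochondrial folate enzyme, 526, 506 and 531 against 172, 175 and 169. PSPH, which makes serine, differed by 1.44. Of 20 cytosolic tRNA synthetases, the enzymes that charge tRNAs, 16 were higher and 2 lower, with a median of 0.47. CARS led them at 1.73, followed by GARS at 1.43, TARS at 1.13 and MARS at 0.94. The stress-induced leucine sensor SESN2 was 85.4, 79.0 and 82.5 FPKM against 8.94, 6.93 and 7.64 (3.24), whereas over the 9 tested restraints of mTORC1 only 2 were higher, SESN2 and EIF4EBP1, and 2 lower, SESN1 and TBC1D7 (2 higher and 5 lower under median centring, quantile normalization or loess). The SESN1 call, at an adjusted p of 0.0384, was lost without MI-389-titled replicate 2 or 3 and without any 1 sunitinib-titled library (adjusted p = 0.0507 to 0.136).

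Several targets of the glucose-responsive factor MondoA were also higher. TXNIP, an arrestin-domain protein that limits glucose uptake, was 490, 456 and 508 FPKM against 63.8, 60.7 and 60.2, with 53.6, 58.0 and 61.2 in DMSO (log2 difference 2.95). ARRDC4 differed by 3.64 and ARRDC3 by 2.16, and 4 of 6 tested genes of the list were higher and none lower (median 1.22). That count includes MLX, a partner of MondoA rather than a target, at 0.28. The MLX call was lost under spike-in scaling (limma adjusted p = 0.0515), which left 3 higher. Among growth-arrest genes 9 of 12 were higher and 1 lower (median 0.52); without GADD45G, which passed the filter only through the MI-389-titled group, 8 were higher and 1 lower (median 0.43). GADD45G was 20.1, 16.5 and 19.9 FPKM against 0.185, 0.180 and 0.180, which lies at the bottom of the table. PLK3 differed by 2.06 and BTG1 by 1.30. CDKN1A, the p21 inhibitor, was low throughout at 1.80, 1.45 and 1.45 against 0.842, 1.25 and 1.02; its call, at an adjusted p of 0.0488, was lost in each leave-one-out fit without an MI-389-titled library (0.0596 to 0.131) and in those without sunitinib-titled replicate 1 or 3 (0.144 and 0.0822). It was also lost under each of the 4 other scalings.

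The surface receptor CD69, an early marker of lymphocyte activation, was 330, 325 and 322 FPKM in the MI-389-titled libraries, 17.2, 16.4 and 16.3 in the sunitinib-titled ones and 27.0, 25.1 and 26.8 in DMSO. Its difference of 4.22 ± 0.048 (SE) had an adjusted p of 3.82e-11. Over the 10 tested activation markers, CD69 included, 3 were higher and 3 lower. CD28 differed by 1.04, while CD83 was lower by -0.70 and CD6 by -0.42.

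Of 23 cytosolic heat shock genes 15 were lower, 3 higher and 5 not called, with a median of -0.42. HSPA8, the constitutive HSP70, was 1073, 1023 and 1094 FPKM in the MI-389-titled libraries, 2911, 2909 and 2796 in the sunitinib-titled ones and 3562, 4472 and 4451 in DMSO. The groups did not overlap, though the treated groups did not in 69.4% of tested genes. The log2 difference was -1.43 ± 0.089 (SE, limma adjusted p = 1.99e-06), a 2.70-fold ratio of means. HSPA1A, the inducible HSP70, was 27.0, 27.7 and 25.7 FPKM against 66.7, 69.3 and 67.2, and 94.1, 112 and 110 in DMSO. HSPA1B differed by -1.29, close to HSPA1A at -1.31; these genes are near-identical copies whose reads cannot be assigned with certainty. DNAJB4, an HSP40 co-chaperone, was among the higher ones at 0.62.

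Promoters of HSPA8 and HSPA1A are shown for the paired GAA units that heat shock factors bind, given from 250 bases before the start to 50 after it on GRCh38.p14: HSPA8 on the minus strand at chr11:123062087-123062386 and HSPA1A on the plus strand at chr6:31815293-31815592. Capitals mark matches to GAANNTTC, at positions -230 and -50 in HSPA8 and -106 in HSPA1A.
HSPA8: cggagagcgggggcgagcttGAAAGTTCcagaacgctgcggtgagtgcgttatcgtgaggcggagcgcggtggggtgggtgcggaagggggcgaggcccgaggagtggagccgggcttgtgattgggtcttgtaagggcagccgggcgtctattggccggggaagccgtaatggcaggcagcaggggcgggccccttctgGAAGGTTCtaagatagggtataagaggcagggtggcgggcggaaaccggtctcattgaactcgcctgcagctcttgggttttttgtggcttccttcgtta
HSPA1A: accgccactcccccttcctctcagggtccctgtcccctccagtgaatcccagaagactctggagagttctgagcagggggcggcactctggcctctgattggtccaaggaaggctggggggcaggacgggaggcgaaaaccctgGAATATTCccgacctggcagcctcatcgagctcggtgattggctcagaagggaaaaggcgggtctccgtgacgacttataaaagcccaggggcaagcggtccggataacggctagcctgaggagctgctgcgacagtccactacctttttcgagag
This pair, which reads the same on both strands, was in 4.61% of the 9475 promoters of tested genes and in 7 of 20 promoters of the heat shock list: CHORDC1, DNAJA1, DNAJB6, HSPA1A, HSPA1B, HSPA8 and HSPB1. Of the 13 members called lower 6 held it, and of the 2 called higher 0 did; CHORDC1 was not called. For the AP-1 and immediate early lists, the AP-1 site TGANTCA was in 1 of 16 promoters (FOSL2) against 4.04% of tested promoters, and the cAMP response element TGACGTCA in 1 of 16 (JUND) against 3.44%. These motifs share outer letters, but no stretch matches both in full. The E-box CACGTG was in 8 of 24 ribosome biogenesis promoters against 10.7%.

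Most chaperones of the endoplasmic reticulum on the list were lower, while several of its stress transducers were higher. HSPA5 (BiP), the main HSP70 of that compartment, was 98.0, 91.0 and 97.8 FPKM against 214, 207 and 212, and 407, 465 and 467 in DMSO. The 3 groups did not overlap, though the treated groups did not in 69.4% of tested genes. The treated groups differed by -1.14 ± 0.064 (SE, limma adjusted p = 1.02e-06). Of 18 ER chaperones 11 were lower and 2 higher, with a median of -0.29; MANF differed by -0.73 and the disulfide isomerase PDIA6 by -0.45. The list of unfolded protein response transducers and ER-associated degradation had 8 of 16 higher and 3 lower, with a median of 0.16 that turned to -0.004 under median centring, where 7 were higher and 6 lower. Its transcription factor XBP1 was 207, 190 and 196 FPKM against 84.3, 83.4 and 78.5 (1.26), and HERPUD1, a degradation scaffold, differed by 1.58. DERL1, a channel for the same pathway, was lower by -0.84.

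Other chaperone classes had smaller medians. The cytosolic chaperonin, which folds actin and tubulin, had 4 of 8 subunits lower, none higher and a median of -0.20; cyclic loess gave 3 lower and 3 higher. Mitochondrial chaperones had 4 of 12 higher and 2 lower, with a median of 0.12 that turned to -0.05 under median centring. HSPE1, the co-chaperonin of the mitochondrial matrix, was lower by -0.68, and the mitochondrial HSP70 HSPA9 was higher by 0.47.

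**Figure D3:**
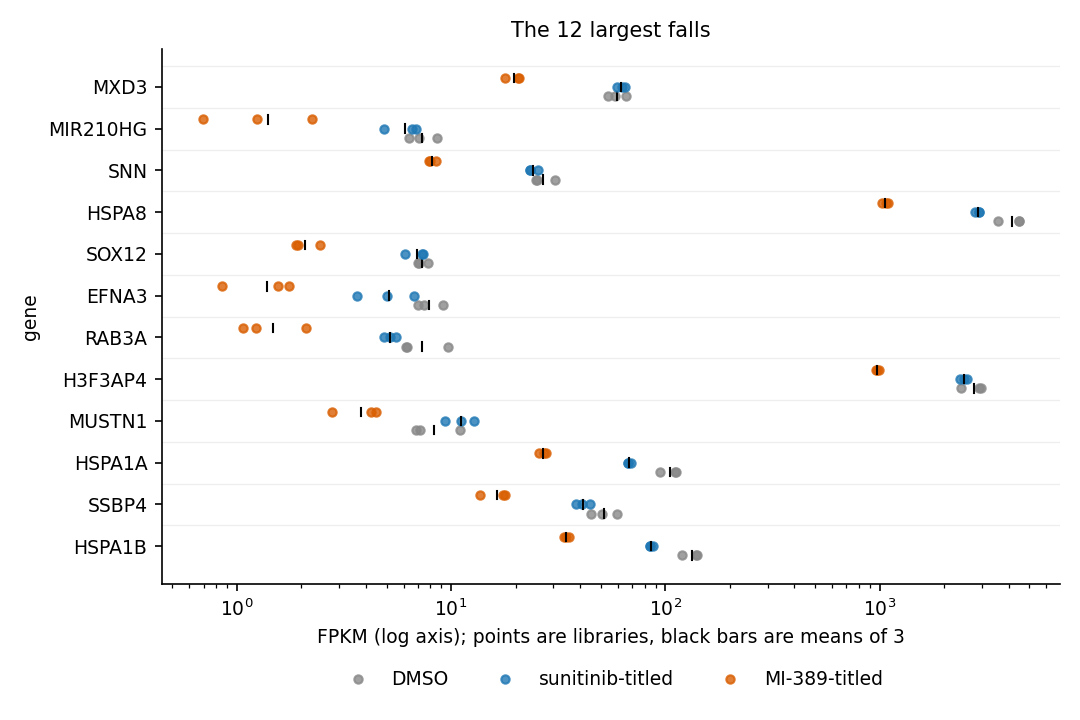
FPKM (log axis) of the 12 genes with the largest falls among called genes with at least 5 FPKM in the higher group; each point is a library, black bars are means of 3, and colours mark DMSO, sunitinib-titled and MI-389-titled libraries. Only genes whose treated groups did not overlap were eligible, which held for 69.4% of tested genes. That the MI-389-titled libraries lie below the sunitinib-titled ones for each gene was thus set by selection. HSPA8 was at 1023 to 1094 against 2796 to 2911 FPKM.

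MXD3, a partner of MAX that opposes MYC, was the first of the 12 largest falls, at 20.4, 17.8 and 20.8 FPKM against 59.3, 62.9 and 65.0 (-1.62), with DMSO at 53.8, 58.5 and 65.4. The same network moved in both directions. MXD1 was 23.1, 21.6 and 21.9 FPKM against 3.90, 3.18 and 3.62 (2.35), and MXD4 differed by -1.26. MYC was 442, 417 and 435 FPKM against 238, 237 and 234 (0.86), with DMSO between the treated groups at 300, 340 and 352. Over 9 tested genes 4 were higher and 3 lower; the median of 0.05 became -0.12 under median centring, -0.09 under quantile normalization and -0.05 under cyclic loess. The pseudogene row H3F3AP4 (-1.34), which resembles its parent histone gene, and the hypoxia-linked host transcript MIR210HG (-1.61) were also among the 12 largest falls.

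Most tested cholesterol synthesis genes were lower in the MI-389-titled libraries. LSS, which closes the sterol ring, was 43.6, 39.2 and 39.1 FPKM against 89.04, 93.4 and 85.03 (-1.12). DMSO lay between them at 49.1, 55.6 and 60.2. HMGCS1, an early enzyme of the pathway, was 54.4, 50.7 and 52.9 against 96.3, 97.0 and 92.2, and in DMSO was 49.8, 53.1 and 59.5. Here the sunitinib-titled libraries stood above both other groups. SQLE, which oxidises squalene, differed by -0.88, and of 28 tested genes 21 were lower and 1 higher (median -0.33).

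Glycolytic and hypoxia-inducible genes followed, with 22 of 30 lower, 3 higher and a median of -0.32. LDHA, which makes lactate, was 858, 865 and 823 FPKM against 1192, 1139 and 1146 (-0.45), and 1325, 1616 and 1657 in DMSO. The mitophagy receptor BNIP3L differed by -0.63. Against that direction, the angiogenic factor VEGFA was 48.0, 45.6 and 44.1 FPKM against 9.76, 8.29 and 9.81 (2.19), and the glucose carrier SLC2A3 differed by 1.62. Of NRF2 and its antioxidant targets 8 of 15 were lower and 1 higher (median -0.20), with 5 to 13 lower under the other scalings; the higher one was NFE2L2, which encodes NRF2 itself, at 1.07. PRDX1, a peroxidase, differed by -0.56. Polyamine genes had 2 of 9 higher and 3 lower, and their median of 0.06 turned to -0.11 under median centring; quantile normalization gave 5 higher and 3 lower. AMD1, which makes the aminopropyl donor, differed by -0.93 and the antizyme inhibitor AZIN1 by 0.91.

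Cytosolic ribosomal protein genes shifted together by a small amount whose direction was not independent of scaling. None of 72 was higher and 51 were lower, with a median of -0.26, but cyclic loess gave 38 higher, 9 lower and a median of 0.06, and spike-in scaling left 6 calls, all lower. RPL7A was 3442, 3404 and 3494 FPKM against 4797, 5040.2 and 4848 (-0.51). The median log2 level of the list was 11.68 to 11.76 in the MI-389-titled libraries and 11.90 to 11.96 in the sunitinib-titled ones, far above the all-gene library medians of 4.74 and 4.58. In the most abundant quintile of all genes the median difference was also negative, at -0.09. Ribosome biogenesis factors, which build ribosomes in the nucleolus, had 19 of 30 higher and 1 lower, with a median of 0.27 that stayed positive under all 4 other scalings (12 higher and 1 lower under spike-in scaling, 14 and 6 under median centring). WDR43 differed by 0.88 and RRP12 by 0.69.

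Respiratory chain genes encoded in the nucleus had 21 of 34 lower and none higher (median -0.24); cyclic loess gave 17 lower and 5 higher, spike-in scaling 11 lower and median centring 33 lower. NDUFB3, a subunit of complex I, was 215, 193 and 206 FPKM against 329, 339 and 324. Mitochondrial ribosomal proteins were split, with 6 of 35 higher and 11 lower (12 and 12 under cyclic loess, 3 and 21 under median centring), and MRPL1 went up by 0.85. Proteasome subunits had 5 of 31 higher and 10 lower. Their median of -0.02 became 0.04 under quantile normalization and 0.07 under cyclic loess. Cyclic loess gave 15 higher and 10 lower, and median centring 3 and 18. As deposited, the mitochondrial ribosomal and proteasome counts were near the shares of the most abundant quintile, 21.7% higher and 35.8% lower. Lysosome and autophagy genes had 3 of 25 higher and 8 lower (median -0.04); median centring gave 1 higher and 16 lower (median -0.20), quantile normalization 1 and 18, and cyclic loess 1 and 13.

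Of 32 G2/M and mitotic genes 22 were lower and none higher, with a median of -0.28. PLK1, the mitotic kinase, was 65.1, 62.8 and 63.7 FPKM against 125, 118 and 122 (-0.92), and CCNB1 differed by -0.56. In the G1/S and replication list 16 of 36 were higher and 9 lower; its median of 0.05 was below the 0.08 over all genes and turned to -0.12 under median centring, with 9 higher and 17 lower. The difference between the lists was not tested. CCND3, a D-type cyclin, was 336, 319 and 330 FPKM against 186, 188 and 180 (0.83), with 284, 352 and 354 in DMSO. PCNA, the sliding clamp of replication, was 702, 689 and 744 against 1191, 1206 and 1154 (-0.73), and DMSO was higher than both at 1529.8, 1806 and 1834. For CCND3 the MI-389-titled libraries overlapped DMSO.

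Homologous recombination, Fanconi and checkpoint genes had 13 of 20 higher and none lower, with a median of 0.26. Median centring, quantile normalization and cyclic loess each gave 4 lower beside 10, 11 and 12 higher, with medians of 0.09, 0.11 and 0.14. EXO1, a DNA end-resecting nuclease, was 56.7, 53.3 and 53.2 FPKM against 31.6, 29.3 and 27.9 (0.86), and the BRCA1 partner BARD1 differed by 1.01. Replication-dependent histone genes, whose mRNAs mostly lack polyA tails, had 8 of 15 tested genes higher and none lower; without HIST1H1D, which passed the filter only through the MI-389-titled group, 7 were higher. HIST1H2AC was 22.03, 22.04 and 24.59 FPKM against 3.64, 4.81 and 4.12.

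Survival and death genes were mixed. PMAIP1 (NOXA), a BCL2-family protein that binds MCL1, was 176, 161 and 167 FPKM against 47.5, 46.2 and 46.0 (1.82). MCL1 differed by 0.47 and BCL2 by 0.84, and the pro-death BCL2L11 (BIM) by -0.44. Over the family 4 of 14 were higher and 5 lower, or 3 and 5 without BBC3, which passed the filter only through the MI-389-titled group. Spike-in scaling gave 4 higher and 1 lower. The median changed sign from -0.003 to 0.01 with a pseudocount of 0.1 and to 0.02 without sunitinib-titled replicate 1. Death receptor and caspase genes had 7 of 14 higher and 3 lower (median 0.17), FAS among the higher at 0.60; median centring gave 5 higher and 5 lower with a median of 0.01, and cyclic loess 5 and 5. Genes that p53 activates had 9 of 16 higher and 4 lower (median 0.27), or 8 and 4 without BBC3; spike-in scaling gave 7 and 1. In the NF-kB list 9 of 14 were higher and 1, CD83, lower (median 0.21), but median centring gave 4 higher and 3 lower (median 0.04) and quantile normalization and cyclic loess each 8 and 3. TNF passed the filter only through the MI-389-titled group, and without it 8 were higher and 1 lower. The cytokine TNF was 8.02, 6.16 and 7.83 FPKM against 0.782, 0.732 and 0.446.

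Regulators of the leukemic T-cell state also differed. TAL1, an oncogenic factor of this leukemia, was 10.8, 9.56 and 10.7 FPKM against 22.8, 21.8 and 21.2 (-1.01), with 28.6, 28.2 and 32.8 in DMSO. Its binding partner LMO2 was 30.5, 28.0 and 31.3 FPKM against 5.98, 6.10 and 5.28 (2.19). These partners thus went in opposite directions. MYB differed by 0.95 and GATA3 by 0.83; over the TAL1 circuit 7 of 14 were higher and 4 lower, with a median of 0.07 that turned to -0.09 under median centring. Among NOTCH receptors and targets 4 of 11 were higher and 4 lower (median 0.08, but -0.09 under median centring, -0.05 under quantile normalization and -0.02 under cyclic loess, and -0.09 without IL7R, which passed the filter only through the MI-389-titled group). HES1, a direct target, was 88.5, 87.5 and 91.5 FPKM against 37.75, 34.97 and 34.84. T-lineage markers had 5 of 22 higher and 8 lower; their median of -0.16 became 0.02 under quantile normalization and 0.07 under cyclic loess, with 11 higher and 10 lower under the latter. CD1A, a marker of cortical thymocytes, differed by -0.56 and LEF1 by 0.63.

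Of 27 kinases reported to bind sunitinib 18 passed the filter, 11 were higher and 2 lower, with a median of 0.36; median centring gave 9 higher and 6 lower. KIT, KDR, PDGFRA, PDGFRB and CSF1R, its receptor targets, were below the filter. FLT1 was 5.84, 6.17 and 7.09 FPKM against 2.08, 1.43 and 1.70. In the FOXO and PI3K list 6 of 16 were higher and 5 lower (median -0.07), where all genes gave 36.0% and 20.3%; median centring gave 5 higher and 9 lower. FOXO3, a transcription factor held back by that pathway, differed by 1.29 and CCNG2 by -1.08.

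Interferon-stimulated genes had 13 of 22 lower and 2 higher, with a median of -0.29. IFIT1 was 2.64, 2.66 and 3.26 FPKM against 8.01, 7.22 and 7.86 (-1.18), and BST2, which tethers virions, differed by -0.74.

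Of 19 tested genes of RNA polymerase II elongation 16 were higher and 2 lower, with a median of 0.34; spike-in scaling left 10 higher and 1 lower. CCNT1, the cyclin of the elongation kinase P-TEFb, was 45.6, 44.0 and 48.0 FPKM against 25.3, 23.9 and 25.1 (0.86). POLR2B, the second-largest subunit of the polymerase, was lower by -0.92. Nonsense-mediated decay, which removes mRNAs with early stop codons and needs GSPT1 and ETF1, had 7 of 14 factors higher and 1 lower (median 0.18); median centring gave 7 and 3, with a median of 0.02. UPF3B differed by 0.71 and UPF2 by 0.44.

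Non-coding host genes of small nucleolar RNAs, whose spliced transcripts are known substrates of that decay, had 10 of 18 higher and 5 lower, with a median of 0.34. SNHG1 was 901, 846 and 892 FPKM against 415, 416 and 411, and GAS5 was 935, 933 and 970 against 558, 539 and 527. DANCR, the lowest of the list, went the other way, at 158.5, 146.4 and 172.2 FPKM against 305, 282.8 and 282 (-0.865). EPB41L4A-AS1 differed by 1.26; it is an antisense gene, and strand use in the counting was not given in the sources used here. SR proteins, their kinases and hnRNP genes had 8 of 24 higher and 3 lower, with a median of 0.09 that turned to -0.07 under median centring; that scaling gave 7 higher and 11 lower, and cyclic loess 17 and 4. Within that list SRSF7 differed by 0.74 and SRSF1 by -0.75.

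**Figure D4:**
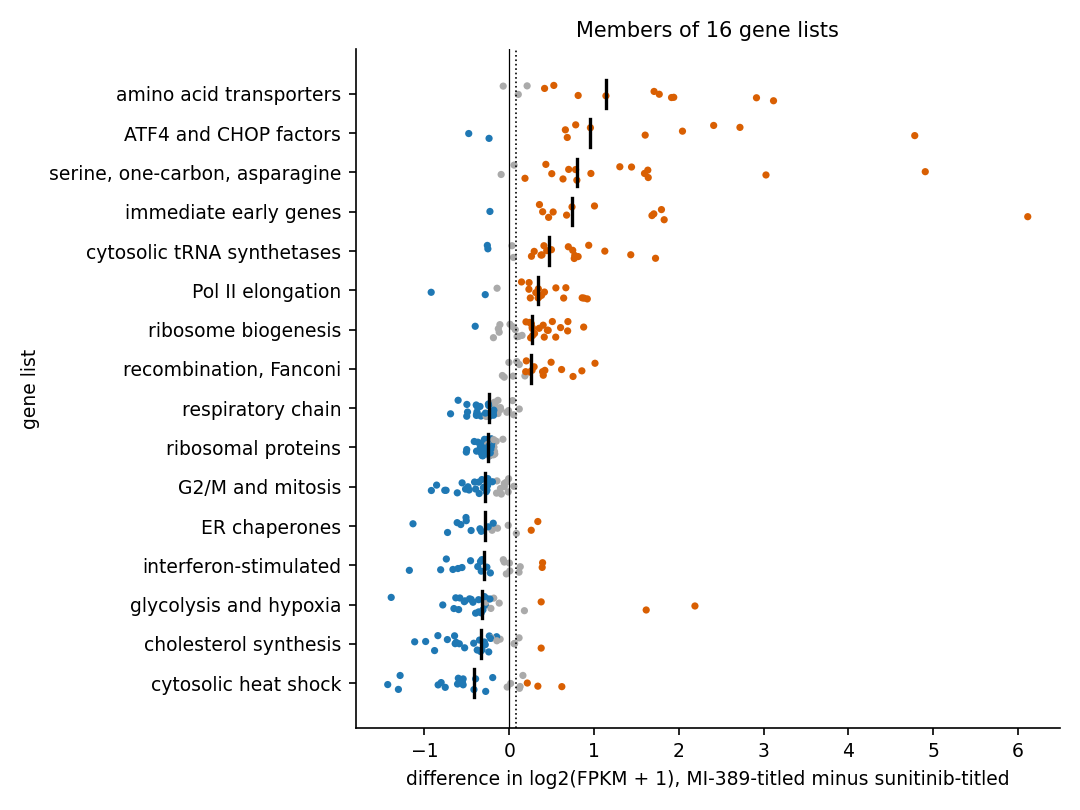
Difference in log2(FPKM + 1), MI-389-titled minus sunitinib-titled, for each tested member of 16 of the gene lists; orange points were higher, blue lower and grey not called, thick bars are list medians, the solid line is 0 and the dotted line is the all-gene median of 0.08. Medians run from 1.14 for amino acid transporters to -0.42 for cytosolic heat shock genes; the ribosomal protein median turned positive (0.06) under cyclic loess.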

How the data were processed

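PolyA RNA of 9 MOLT4 libraries was measured with spike-in RNA added. The authors deposited 1 table of FPKM values, further normalized before deposit in a way not given in the sources used here; HISAT, Cufflinks 2.0.0 and hg19 are named, with no roles, per the submitters' processing notes. Of 23713 rows, 92 were spike-in RNAs and were left out of the test; 11969 of 12301 tested names matched RefSeq symbols. FPKM is not a count, and no interval that needs depth is given.

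The test was limma 3.58.1 (R 4.3.3) on log2(FPKM + 1) (variance trend, all 9 libraries in 3 groups, two-sided, Benjamini-Hochberg over 12301 genes, threshold 0.05), after the script was tested on simulated data. All adjusted p-values in the text are from limma, and a fold on this scale understates changes of low genes. Members and 54 gene lists were chosen with earlier results of these data known; lists are given by counts and medians with no test. Genes named were the 12 largest rises and falls (at least 5 FPKM in the higher group, groups not overlapping). Up to 4 called members of each list with the smallest adjusted p, and a set list, were added. Genes named for a motif, for being below the filter, for passing it through 1 group or as the only member in a direction fell outside this rule. So did DANCR, the lowest of its list, and the B-cell markers BLK and CD79B. Promoters came from RefSeq (GRCh38.p14). Alternatives varied the pseudocount, filter, scaling, samples and model; list counts without members that passed the filter through 1 group were added after seeing the data.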

Additional observations from a re-analysis of the deposited data

How the results depend on the processing

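Call counts, the all-gene median, 211 named genes and the medians of 52 lists were recomputed under 24 alternatives; counts within lists were recomputed under the 4 other scalings, and levels and motif shares were not. The naming rule mostly took genes with large differences or small adjusted p in the main fit, which favours agreement. Of 211 tested genes under that rule none changed sign, and 199 kept their call wherever a 2-fold change was not required. Requiring it left 417 of 6927 calls, 362 higher and 55 lower. Lower calls rose from 2500 to 4863 under median centring, 4426 under quantile normalization and 4040 under cyclic loess. The all-gene median of 0.081 became 0.000 with no filter, where rows at the bottom of the table enter, -0.084 under median centring, -0.037 under quantile normalization and -0.008 under cyclic loess. Leaving out 1 library gave 5950 to 7594 calls, 3792 to 4725 higher and 1926 to 2874 lower.

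List medians changed sign as follows, and the cause was not tested. Median centring gave -0.061 for eIF2alpha kinases and phosphatases, -0.046 for mitochondrial chaperones, -0.004 for ER degradation and stress transducers, -0.074 for SR proteins, -0.106 for polyamine genes, -0.120 for the MYC network, -0.117 for G1/S, -0.089 for NOTCH, -0.094 for the TAL1 circuit, -0.002 for activation markers and -0.082 for the 3 tested B-cell markers (0.083 as deposited). Quantile normalization gave 0.037 for the proteasome, -0.088 for the MYC network, -0.047 for NOTCH, -0.028 for B-cell markers and 0.018 for T-lineage markers. Cyclic loess gave 0.056 for ribosomal proteins, 0.072 for the proteasome, -0.052 for the MYC network, -0.019 for NOTCH, -0.001 for B-cell markers and 0.074 for T-lineage markers. A 5 FPKM filter gave -0.024 for the MYC network and -0.086 for NOTCH, and a pseudocount of 0.1 gave 0.012 for the BCL2 family. Leaving out 1 library moved the neddylation median from -0.010 to 0.010, the proteasome from -0.035 to 0.001, the MYC network from -0.043 to 0.109, the BCL2 family from -0.090 to 0.021 and B-cell markers from -0.032 to 0.272; the sign changes came without sunitinib-titled replicate 1 (neddylation, BCL2 family), MI-389-titled replicate 1 (B-cell markers), MI-389-titled replicate 2 (proteasome) and sunitinib-titled replicate 2 (MYC network).

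Whether replicate numbers pair the libraries was not tested. Deviations from group means correlated weakly, at 0.07, 0.112 and 0.039, between same-numbered treated libraries. Unlike-numbered treated libraries gave -0.097 to 0.025, so each library correlated best with its own number. With the number as a block, 6740 genes were called, 4363 higher and 2377 lower. The table holds no counts, so depth limits of low genes are unknown, and compound names would swap if the source field is right.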
